A study of Mus musculus with 8 samples.

Results

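Slc1a5 and 9 other genes for transporters that carry amino acids across the plasma membrane were followed through 8 RNA sequencing libraries from mice, in 4 groups of 2. All 10 listed symbols were found among the 14042 genes of every library, and none was lost to a filter. The genes were chosen by symbol with earlier results of these data known. Slc1a5 was selected on its measured differences between genotypes and its higher level in TFH KO than in naive KO libraries, so its values are given as a description, without a test. The same earlier results included counts over a list of amino acid genes, so calls among the other 9 genes do not stand as independent evidence.

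Per the labels, naive CD4 T cells were sorted for high CD62L and low CD44, and came either from WT animals or from C5aR1-/- animals (here KO), which lack a receptor for the complement fragment C5a. TFH names donor CD4 cells that carried CXCR5 and much PD1 at the sort, as T follicular helper cells do, the helpers of B cells in germinal centres. These were taken from spleens of (bxd)F1 mice on day 7 after transfer of 10000000 WT or C5aR1-/- spleen cells from which CD8 cells had been removed. The donors of the KO groups lack C5aR1, while the sources used here do not give the F1 hosts' genotype at this gene, the ages of the mice or any pooling of animals. TFH and naive libraries also differ in having passed through a host, so the effect of the transfer and that of the sorted cell type cannot be told apart.

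Resting T cells import few amino acids, and activation raises import sharply. Slc1a5 encodes ASCT2, an exchanger of glutamine and small neutral amino acids, and Slc1a4 encodes its close relative ASCT1. Slc7a5 encodes LAT1, the light chain that carries leucine and other large neutral amino acids. Slc3a2 encodes CD98, the heavy chain that brings LAT1 and the light chains encoded by Slc7a6 and Slc7a11 to the cell surface. Slc38a1 and Slc38a2 encode sodium-coupled glutamine importers, Slc7a1 an importer of arginine and lysine, and Slc43a1 a transporter of large neutral amino acids. Transcription of several of these genes is known to respond to ATF4, the factor induced by amino acid shortage, and to Myc.

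Promoter windows of 250 bases before to 50 bases after a transcription start (RefSeq, GRCm38.p6) were at hand for 7 of the 10 genes, in 9 windows. They were searched on both strands for TGATGNAA, the core letters of the composite element bound by ATF4 with C/EBP partners, for CACGTG, the E-box bound by Myc, and for TGACTCA, the AP-1 site. The parts shown run from 110 bases before to 10 bases after the start, 5′ to 3′ on the gene's strand, with matches in capitals. Slc7a11 and Slc1a4 are shown because they held the only TGATGNAA matches among the 7 genes, Slc43a1 for its E-box, and Slc38a2 as a gene that rose in both genotypes and whose window held none of the 3 motifs.
Slc7a11 (chr3:50443604-50443723, minus strand): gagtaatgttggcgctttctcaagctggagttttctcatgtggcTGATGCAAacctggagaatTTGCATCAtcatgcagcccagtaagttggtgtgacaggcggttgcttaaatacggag
Slc1a4 (chr11:20332704-20332823, minus strand): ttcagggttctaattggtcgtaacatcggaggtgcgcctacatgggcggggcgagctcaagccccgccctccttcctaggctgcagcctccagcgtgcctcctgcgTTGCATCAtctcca
Slc43a1 (chr2:84840213-84840332, plus strand): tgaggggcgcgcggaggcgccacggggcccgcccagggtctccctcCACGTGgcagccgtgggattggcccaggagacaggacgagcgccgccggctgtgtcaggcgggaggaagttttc
Slc38a2 (chr15:96699719-96699838, minus strand): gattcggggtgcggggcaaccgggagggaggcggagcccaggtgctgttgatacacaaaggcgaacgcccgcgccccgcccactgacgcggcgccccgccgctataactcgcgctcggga
Slc7a11 carried TGATGNAA at 2 places, once on each strand, with first bases at -66 and -47 from the start. In Slc1a4 the match lay on the opposite strand across the start, with its first base at -4. TGATGNAA occurred in 3.97% of all 32851 promoter windows, CACGTG in 7.15% and TGACTCA in 5.20%. The match of TGACTCA was in 1 window of Slc7a1. These matches are descriptions of letters, and binding was not measured.

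Values below are the deposited log2 expression values, and a difference is a difference of group means on that scale with its moderated standard error (SE), n = 2 libraries per group. The sources used here give neither the unit under the logarithm nor whether gene length was divided out, so levels are compared between libraries and never between genes. A gene was called, and is said to have risen or fallen, at a limma p below 0.05 after Benjamini-Hochberg adjustment over all 14042 genes. In bulk RNA, fewer cells of a type and less RNA per cell cannot be told apart.

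The depth of the libraries is unknown. The deleted gene, C5ar1, was not analysed here, and no check of the genotype labels rests on it. Cd4 lay between 15.48 and 15.69 in all 8 libraries, whereas Cxcr5, a sort marker of the TFH gate, was 11.56 to 12.45 in naive and 10.85 to 11.56 in TFH libraries, against its label. Pdcd1, which encodes PD1, the other marker of that gate, ran with the label, at 10.80 to 11.97 in naive and 11.88 to 12.85 in TFH libraries, with an overlap. Cd44 was higher in naive (12.53 to 13.04) than in TFH libraries (11.97 to 12.11). Of 22 B cell markers the median, relative to each gene's mean over all libraries, was -1.53 and 0.55 in replicates 1 and 2 of TFH WT, -1.74 and 2.04 in those of TFH KO, and -0.51 to 0.66 in naive libraries. The log2 of their summed linear values ran from 14.64 to 15.74 in naive WT, was 15.61 in both naive KO libraries, and ran from 13.62 to 15.63 in TFH WT and from 13.41 to 17.08 in TFH KO. Of 22 myeloid markers 5 fell in TFH WT and 2 in TFH KO, with a log2 sum of 14.45 to 15.93 in naive and 13.02 to 14.16 in TFH libraries. Of 14 markers of CD8 T and NK cells 8 fell in TFH WT and 6 in TFH KO, with a log2 sum of 13.32 to 13.71 in naive and 11.94 to 13.00 in TFH libraries. Of 12 CD4 T cell markers 1 rose and 3 fell in TFH WT and 5 fell in TFH KO, with a log2 sum of 18.49 to 18.58 in naive and 18.26 to 18.41 in TFH libraries. Beside these counts, 13.7% of all genes were called lower in WT and 10.4% in KO, and 12.6% and 9.12% higher. The 2 myeloid markers that fell in KO are thus near the share of all genes. Naive KO replicate 1 stood apart in Xist (14.61, against 4.44 to 5.56 in the other libraries), the RNA of the inactive X chromosome. It also stood apart in Ddx3y, a gene of the Y chromosome (5.67, against 12.54 to 13.16 in the other libraries). By these 2 genes it reads as a female sample and the others as male, so the naive KO libraries differ in sex.

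Slc1a5 was high in naive WT, TFH WT and TFH KO libraries and low in naive KO libraries. It was 13.90 and 14.04 in naive WT, 11.56 and 11.63 in naive KO, 13.86 and 13.81 in TFH WT, and 13.15 and 13.28 in TFH KO. The groups follow the order naive KO, TFH KO, TFH WT, naive WT from low to high, and no library of one group overlaps the next. The step between TFH WT and naive WT is small, with a gap of group means of -0.13 ± 0.10 that is near its error.

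Between naive groups the KO mean of Slc1a5 lay lower by a log2 difference of -2.38 ± 0.10, or 5.19-fold on the deposited scale. Between TFH groups it lay lower by -0.62 ± 0.10, or 1.54-fold. From naive to TFH the value hardly differed in WT, while in KO the TFH mean lay 1.62 ± 0.10 above the naive mean. With each library left out in turn and under the other settings tried, the naive difference ran from -2.44 to -2.31 and the TFH difference from -0.72 to -0.55. Without naive KO replicate 1, the library apart in Xist and Ddx3y, the naive difference was -2.34. Without replicate 2 of both TFH groups, with the higher B cell markers, the TFH difference was -0.72. Beyond these omissions, the part of sex and of B cell transcripts in the Slc1a5 values was not tested.

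**Figure D1:**
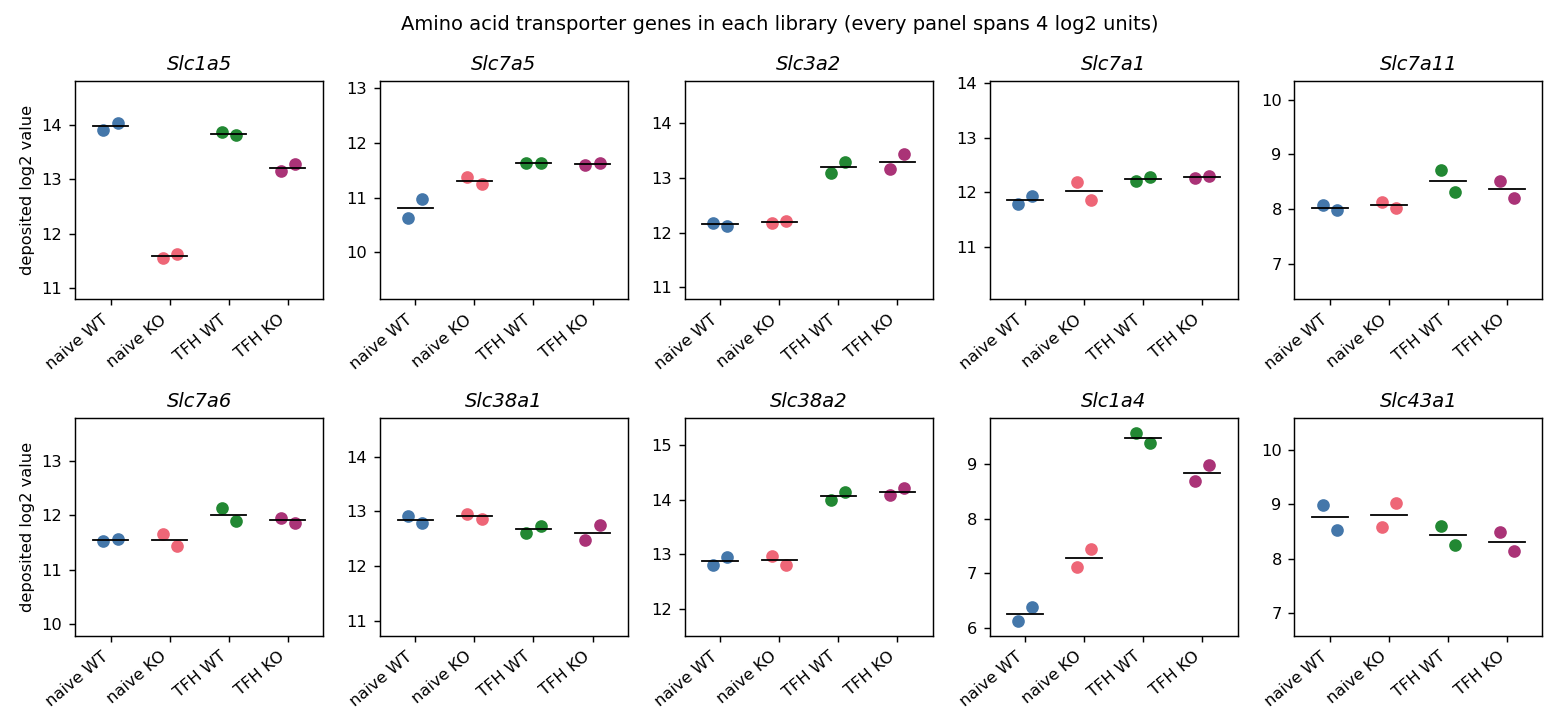
Deposited log2 value (y axis) of the 10 transporter genes in the 4 groups (x axis); points are libraries, bars are group means, and every panel spans 4 log2 units. Slc1a5 is low in naive KO (11.56 and 11.63), and Slc1a4 spans the widest range (6.13 to 9.57). Slc7a1, Slc7a6, Slc7a11, Slc38a1 and Slc43a1 each stay within 1 log2 unit.

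Slc1a5 lies on chromosome 7 from 16781340 to 16798274 on the plus strand (GRCm38, GENCODE vM21), and its start is 522 kb from that of C5ar1. Of the other measured genes, 10 start within 300 kb of the Slc1a5 start. None of the 10 was called between genotypes in naive or in TFH libraries by limma, and none had an unadjusted p below 0.05. Of all 14042 genes, 0.0712% were called in naive and 0.0% in TFH libraries, and 355 and 506 had such an unadjusted p. The absence of a call therefore does not set the 10 apart. Among the 10, those with the widest naive differences were the prostacyclin receptor gene Ptgir (-0.25 ± 0.25) and the calmodulin gene Calm3 (0.21 ± 0.11). In naive libraries their differences spanned -0.25 to 0.21, beside -2.38 for Slc1a5.

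The genes whose profile over the 8 libraries came nearest to that of Slc1a5 were sought by the root mean square difference of log2 values, each gene centred on its own mean. Nearest was Bcam, an adhesion molecule gene, at 0.294, followed by Ccdc61 at 0.418, Zfp974 at 0.448, the antibacterial protein gene Pglyrp1 at 0.520 and Sbsn at 0.539. All 5 lie on chromosome 7, which holds 7.85% of the 12975 genes with a position that were searched. Their starts are 3.5, 2.7, 11.7, 2.6 and 14.5 Mb from that of C5ar1, in the order named. Bcam was 8.32 and 7.90 in naive WT, 6.13 and 6.11 in naive KO, 8.25 and 8.09 in TFH WT, and 7.33 and 6.96 in TFH KO. Zfp974 was 8.84 and 9.28 in naive WT and 7.34 and 7.27 in naive KO, but lay between 8.25 and 8.37 in all 4 TFH libraries. Bcam had an intermediate level in TFH KO, as Slc1a5 did, and Zfp974 had the low level in naive KO alone. The 5 genes were picked for nearness to Slc1a5 over these same libraries, so their likeness to it follows from the choice.

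**Figure D2:**
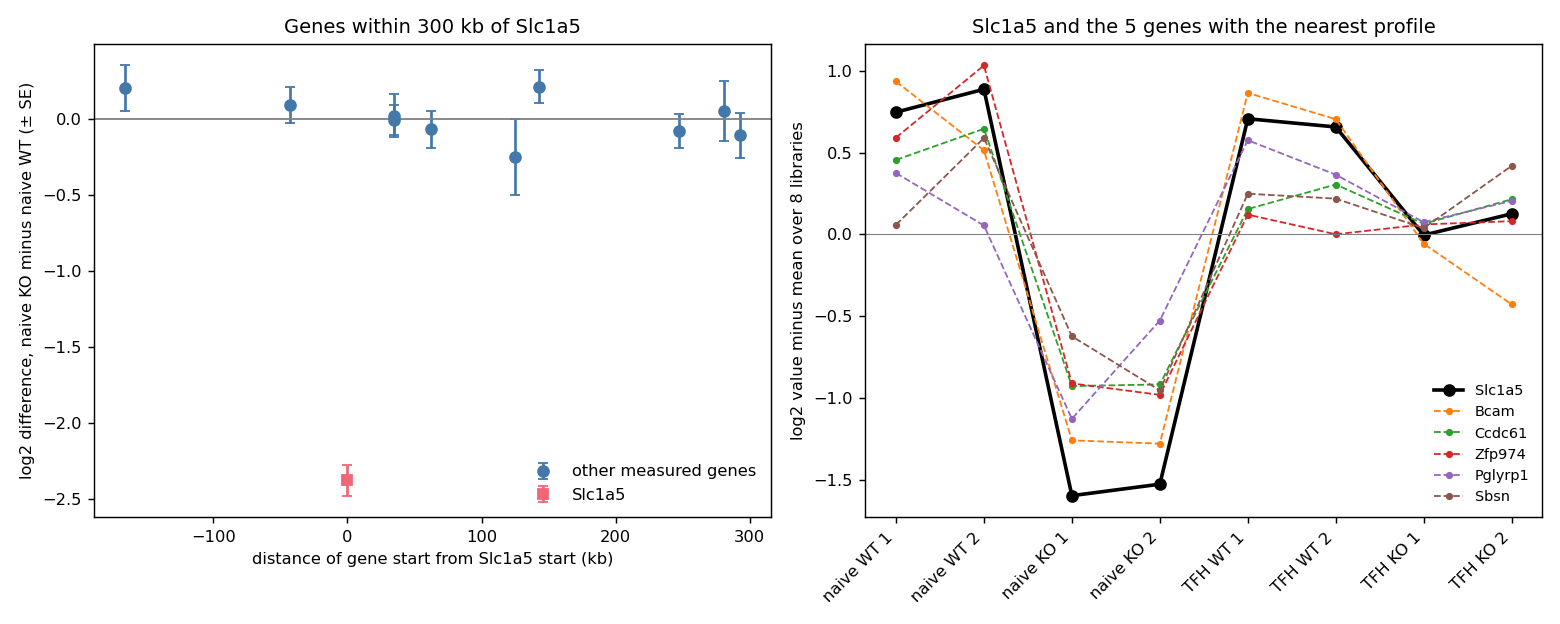
Left, log2 difference of naive KO minus naive WT (y axis, ± SE) against the distance of each gene's start from that of Slc1a5 (x axis, kb), with Slc1a5 as the square at -2.38 and its 10 neighbours between -0.25 and 0.21. Right, log2 value minus the gene's mean (y axis) in each library (x axis) for Slc1a5 and the 5 genes nearest to it. All have their lowest values in naive KO, a likeness that the choice by nearness favours.

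Among the other 9 transporters, TFH libraries were compared with naive libraries within each genotype, to ask which importers are higher in cells sorted after transfer. In WT, 6 of 9 rose, none fell and 3 were not called, where 26.3% of all genes were called, 12.6% higher and 13.7% lower. In KO, 4 of 9 rose, none fell and 5 were not called, where 19.5% of all genes were called, 9.12% higher and 10.4% lower. The median difference over the 9 was 0.49 in WT and 0.29 in KO, against 0.01 and -0.01 over all genes. The 2 comparisons share no library, and each value below comes from the same fit over all 4 groups. Naive and TFH libraries did not overlap, with TFH higher, for 7 of the 9 in either genotype, as for 33.1% of all genes in WT and 27.6% in KO.

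Slc1a4, the ASCT1 gene, had the widest rise among the 9 in both genotypes. It was 6.13 and 6.38 in naive WT, 7.11 and 7.45 in naive KO, 9.57 and 9.38 in TFH WT, and 8.69 and 8.98 in TFH KO. No 2 groups overlap, and the order from low to high is naive WT, naive KO, TFH KO, TFH WT. The rise was 3.22 ± 0.21 in WT (limma, adjusted p = 1.35e-06) and 1.55 ± 0.21 in KO (limma, adjusted p = 0.000372). The difference between those rises, -1.67 ± 0.29, did not pass the threshold over all genes (limma, adjusted p = 0.252). Slc1a4 lies on chromosome 11 from 20302180 to 20332713 on the minus strand.

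The CD98 heavy chain gene Slc3a2 rose in both genotypes. It was 12.18 and 12.12 in naive WT and 12.17 and 12.22 in naive KO, against 13.09 and 13.30 in TFH WT and 13.17 and 13.43 in TFH KO. Every TFH library lay above every naive library, and the genotypes overlap on either side. The rise was 1.04 ± 0.12 in WT (limma, adjusted p = 8.85e-05) and 1.10 ± 0.12 in KO (limma, adjusted p = 7.46e-05), and the rises differed by 0.06 ± 0.16.

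Slc7a5, which encodes the leucine carrier LAT1, rose in WT by the test over all genes, and its naive groups did not overlap. It was 10.63 and 10.98 in naive WT, 11.38 and 11.24 in naive KO, 11.63 and 11.64 in TFH WT, and 11.59 and 11.63 in TFH KO. The 4 TFH libraries lie within 0.1 of each other, and the naive KO libraries lie between them and naive WT. The rise in WT was 0.82 ± 0.12 (limma, adjusted p = 0.000591), and the KO difference of 0.29 ± 0.12 was not called (limma, adjusted p = 0.117). The test of the difference between these changes gave -0.53 ± 0.17 (limma, adjusted p = 0.997), so the rise was not shown to differ between genotypes. Its annotated span on chromosome 8, from 121881150 to 121907694 on the minus strand, overlaps the model Gm20388 on the other strand. The strand setting of the counting is not given, so reads of the pair could not be separated with certainty.

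Slc7a6 and Slc7a11 encode further light chains of CD98. Slc7a6, whose product exchanges cationic and neutral amino acids, was 11.52 and 11.56 in naive WT, 11.65 and 11.44 in naive KO, 12.13 and 11.89 in TFH WT, and 11.95 and 11.86 in TFH KO. TFH libraries lay above naive libraries in both genotypes without overlap. It rose by 0.47 ± 0.12 in WT (limma, adjusted p = 0.0107) and by 0.36 ± 0.12 in KO (limma, adjusted p = 0.0491), next to the threshold. In limma fits that left out naive WT replicate 1 the WT difference was 0.45 with adjusted p = 0.0639, and leaving out TFH WT replicate 1 gave 0.35 with adjusted p = 0.114. The KO call held in 3 of 16 alternatives.

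Slc7a11, whose product xCT imports cystine for glutathione synthesis, was 8.07 and 7.98 in naive WT, 8.12 and 8.02 in naive KO, 8.71 and 8.32 in TFH WT, and 8.52 and 8.21 in TFH KO. Its differences of 0.49 ± 0.20 in WT and 0.29 ± 0.20 in KO were not called (limma, adjusted p = 0.0867 and 0.336). No naive library reached the lowest TFH library, but the 2 TFH libraries of a group lie 0.3 or more apart.

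Slc38a2, encoding the glutamine importer SNAT2, rose in both genotypes, while its neighbour Slc38a1, whose start is 57 kb away on chromosome 15, did not. Slc38a2 was 12.80 and 12.96 in naive WT, 12.98 and 12.80 in naive KO, 13.99 and 14.15 in TFH WT, and 14.09 and 14.21 in TFH KO. All TFH libraries lay above all naive libraries, and the genotypes overlap on either side. The rise was 1.19 ± 0.11 in WT (limma, adjusted p = 3.21e-05) and 1.25 ± 0.11 in KO (limma, adjusted p = 2.65e-05).

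Slc38a1, encoding the related importer SNAT1, was 12.91 and 12.79 in naive WT, 12.96 and 12.86 in naive KO, 12.60 and 12.74 in TFH WT, and 12.47 and 12.75 in TFH KO. Each TFH library lay below each naive library, by as little as 0.04 between the nearest pair. The differences of -0.17 ± 0.12 in WT and -0.30 ± 0.12 in KO were not called (limma, adjusted p = 0.307 and 0.0936).

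Slc7a1, which encodes the arginine and lysine importer CAT1, was 11.78 and 11.92 in naive WT, 12.19 and 11.86 in naive KO, 12.21 and 12.27 in TFH WT, and 12.25 and 12.29 in TFH KO. The TFH libraries lie close together, and naive KO replicate 1 comes within 0.1 of them. It rose by 0.39 ± 0.12 in WT (limma, adjusted p = 0.0315), a call that was lost with any of the 4 WT libraries left out (adjusted p from 0.0641 to 0.177). The KO difference of 0.24 ± 0.12 was not called (limma, adjusted p = 0.185), and it rested on single naive KO libraries. It was 0.41 without naive KO replicate 1 (limma, adjusted p = 0.0472) and 0.08 without naive KO replicate 2 (limma, adjusted p = 0.756).

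Slc43a1, a transporter of large neutral amino acids, was 8.99 and 8.53 in naive WT, 8.58 and 9.03 in naive KO, 8.61 and 8.26 in TFH WT, and 8.49 and 8.14 in TFH KO. Its libraries overlap between naive WT and TFH WT, and within each group they lie about as far apart as the group means. The differences of -0.32 ± 0.23 in WT and -0.49 ± 0.23 in KO were not called (limma, adjusted p = 0.336 and 0.162).

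**Figure D3:**
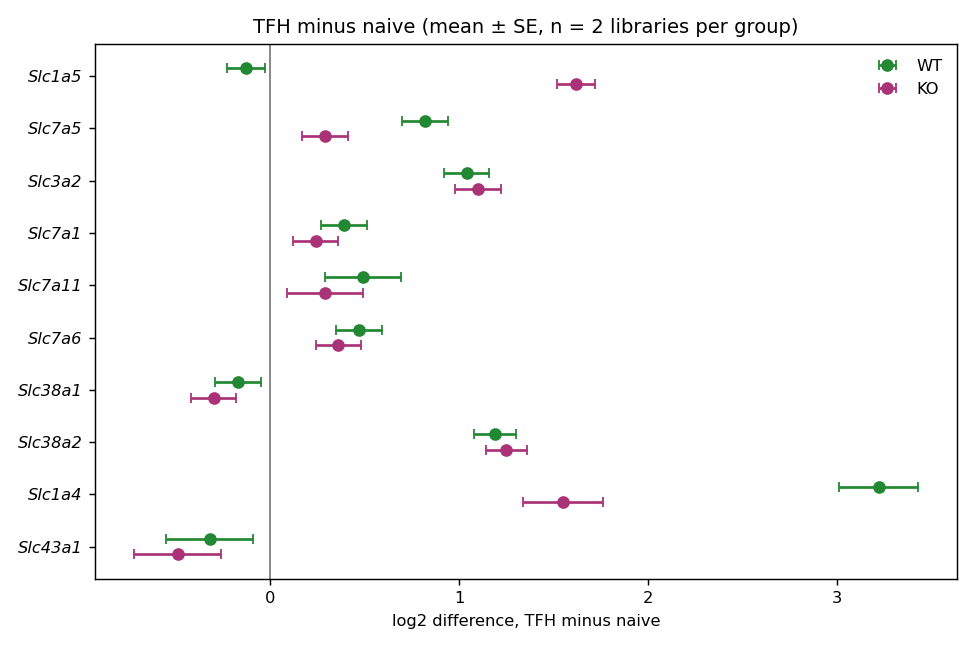
Log2 difference of TFH minus naive libraries (x axis, mean ± SE, n = 2 libraries per group) for each transporter gene (y axis) in WT and KO. Slc1a4, Slc38a2 and Slc3a2 lie at 1.04 or more in both genotypes, and Slc1a5 lies at -0.13 in WT and 1.62 in KO.

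In both TFH groups, replicate 2, with the higher B cell markers, had the higher value of Slc3a2, Slc38a1, Slc38a2, Slc7a1 and Slc7a5. The gaps were small for Slc7a5 (11.63 and 11.64 in TFH WT, 11.59 and 11.63 in TFH KO). They were also small for Slc7a1 (12.21 and 12.27 in TFH WT, 12.25 and 12.29 in TFH KO). Replicate 2 had the lower value of Slc7a11, Slc7a6 and Slc43a1 in both groups. Slc1a4 and Slc1a5 were lower in replicate 2 of TFH WT and higher in replicate 2 of TFH KO. Without replicate 2 of both groups, 5 of 9 genes rose in WT and 3 in KO. The genes no longer called were Slc7a1 in WT (0.36, limma, adjusted p = 0.171) and Slc7a6 in KO (0.40, limma, adjusted p = 0.125). In this setting Slc1a4, Slc3a2 and Slc38a2 were called in both genotypes, and Slc7a5 and Slc7a6 in WT. In the same comparisons, 8 of 14 markers of CD8 T and NK cells fell in WT and 6 in KO. Of 22 myeloid markers 5 fell in WT and 2 in KO, where 13.7% and 10.4% of all genes were called lower. The myeloid count in KO is thus near the share of all genes. The part of B cell, myeloid, CD8 T and NK cell transcripts in the differences was not tested.

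Comparison of KO with WT libraries within each label asked which importers differ between the genotypes. Loss of C5aR1 and any other difference between the WT and C5aR1-/- animals cannot be told apart here. None of the 9 genes was called by limma in naive libraries, where 2 had an unadjusted p below 0.05 and 0.0712% of all genes were called, 0.0356% higher and 0.0356% lower. None was called in TFH libraries, where 1 had an unadjusted p below 0.05 and 0.0% of all genes were called. By limma, 355 of all 14042 genes had an unadjusted p below 0.05 in naive and 506 in TFH libraries. The median difference over the 9 was 0.05 in naive and -0.06 in TFH libraries, against 0.01 and 0.0 over all genes. The groups did not overlap for Slc1a4 and Slc7a5 in naive libraries (KO higher, as for 15.2% of all genes) and for Slc1a4 in TFH libraries (KO lower, as for 16.5% of all genes).

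The naive KO mean of Slc1a4 lay 1.03 ± 0.21 above that of naive WT (limma, adjusted p = 0.200), and its TFH KO mean minus that of TFH WT was -0.64 ± 0.21 (limma, adjusted p = 1). Neither passed the threshold over all genes. Slc7a5 differed by 0.51 ± 0.12 between naive groups (limma, adjusted p = 0.535) and by -0.02 ± 0.12 between TFH groups. For the remaining 7 genes the naive differences ran from 0.00 to 0.18 and the TFH differences from -0.15 to 0.11. In naive libraries, then, Slc1a5 was lower in KO while its relative Slc1a4 had its values in the other direction, and in TFH libraries the KO values of both were lower. The 2 genotype comparisons share no library. In the test of the difference between them, none of the 9 genes was called, where 0.0142% of all genes were called, 0.00712% in each direction. Of the 9, 2 (Slc1a4 and Slc7a5) had an unadjusted limma p below 0.05, as did 614 of all 14042 genes.

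**Figure D4:**
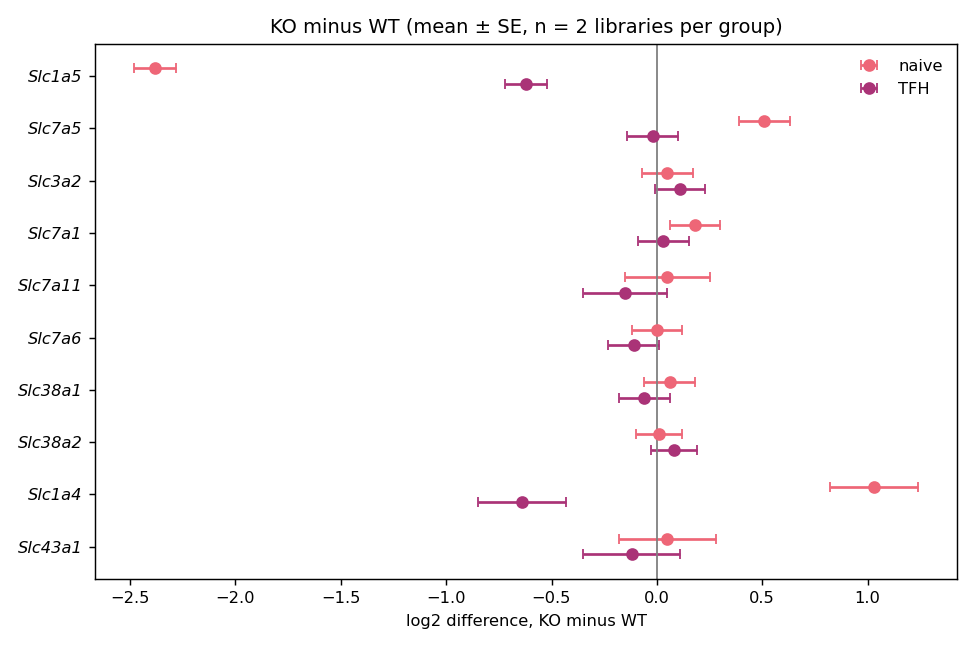
Log2 difference of KO minus WT libraries (x axis, mean ± SE, n = 2 libraries per group) for each transporter gene (y axis) in naive and TFH libraries. Slc1a5 lies at -2.38 and -0.62, Slc1a4 at 1.03 and -0.64, and the other genes between -0.15 and 0.51.

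Genes around amino acid import were taken from lists written with the earlier results known, and the transporters above were left out of them. Each list's counts are to be read against the 26.3% of all genes called in WT and 19.5% in KO. Of 21 measured other amino acid transporters of the plasma membrane, none rose and 3 fell in WT, with a median of -0.14 over the 21, and 1 fell in KO. The share that fell was 14.3% in WT and 4.76% in KO, against 13.7% and 10.4% of all genes, so in WT it was near that of all genes. These were Slc43a2, a relative of Slc43a1, at -0.74 ± 0.13 in WT and -0.64 ± 0.13 in KO, the glutamate transporter gene Slc1a3 at -1.67 ± 0.31 in WT, and the taurine transporter gene Slc6a6 at -0.61 ± 0.15 in WT. In KO, Slc1a3 at -0.87 ± 0.31 and Slc6a6 at -0.41 ± 0.15 were not called. A list of mainly lysosomal amino acid transporters also named other carriers, such as the nucleoside transporter gene Slc29a3. None of its 15 measured genes was called in either genotype by limma, with 2 at an unadjusted p below 0.05 in WT and 1 in KO. Of all 14042 genes, 5312 in WT and 4574 in KO had such a p.

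Of 13 mitochondrial carriers 2 rose and 4 fell in WT, and 1 rose and 5 fell in KO, a share of 46.2% called in each genotype. The aspartate-glutamate carrier gene Slc25a13 rose by 1.13 ± 0.16 in WT and had a difference of 0.27 ± 0.16 in KO that was not called. Slc25a40 fell by 0.67 ± 0.14 in WT and 0.57 ± 0.14 in KO, Sfxn2 by 0.61 ± 0.15 and 0.65 ± 0.15, and Slc25a29 by 0.71 ± 0.18 and 0.72 ± 0.18.

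Of 25 enzymes that use glutamine and other amino acids, 7 rose and 2 fell in WT, and 4 rose and 2 fell in KO, or 9 and 6 of 25 called, not far above the shares of all genes. Odc1, which makes polyamines from ornithine, rose by 1.72 ± 0.23 in WT and 1.69 ± 0.23 in KO. Bcat1, which takes the amino group from leucine and its kin, rose by 1.18 ± 0.19 and 0.72 ± 0.19, and the aspartate aminotransferase gene Got1 by 0.54 ± 0.11 and 0.37 ± 0.11. Psat1, an enzyme of serine synthesis, was among those that rose in both genotypes.

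Sensing of amino acids by mTORC1, the kinase complex that couples nutrients to growth, was represented by 35 measured genes. In WT 3 rose and 4 fell, and in KO 1 rose and 6 fell, with medians of -0.07 and -0.02. The 7 of 35 called in each genotype are a share below that of all genes in WT and near it in KO, so the genes named next do not set the list apart. Bmt2, which encodes the methionine-linked inhibitor SAMTOR, fell by 1.23 ± 0.15 in WT and 0.99 ± 0.15 in KO. Rptor, the mTORC1 scaffold gene, fell by 0.52 ± 0.11 and 0.53 ± 0.11. The sestrin gene Sesn1 fell by 0.54 ± 0.12 in WT, and the Rag GTPase gene Rragd rose by 0.79 ± 0.16 in WT, while in KO they differed by -0.23 ± 0.12 and 0.39 ± 0.16 and were not called.

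Of 24 genes of the amino acid response, 7 rose and 2 fell in WT, and 6 rose and 4 fell in KO, or 37.5% and 41.7% called. Atf4 rose from 13.27 and 13.54 in naive WT to 14.69 and 14.66 in TFH WT, and from 13.22 and 13.44 to 14.74 and 14.72 in KO. Its rise was 1.28 ± 0.12 in WT and 1.40 ± 0.12 in KO. Stc2, a secreted glycoprotein gene induced by ATF4, rose by 3.01 ± 0.31 and 1.47 ± 0.31. Ppp1r15a rose by 3.42 ± 0.16 and 3.29 ± 0.16, and its product reverses the phosphorylation that induces ATF4. Ddit4, an inhibitor of mTORC1, fell by 1.41 ± 0.15 and 1.35 ± 0.15. None of the 24 was called between genotypes by limma, with 2 at an unadjusted p below 0.05 in naive and 3 in TFH libraries. Of all 14042 genes, 355 in naive and 506 in TFH libraries had such a p.

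Of 18 known regulators of transporter genes, 7 rose and 1 fell in WT, and 6 rose and 1 fell in KO, or 44.4% and 38.9% called. Those called higher compare with 12.6% of all genes in WT and 9.12% in KO. Myc, the main driver of amino acid import in activated T cells, rose by 0.90 ± 0.14 in WT and 0.81 ± 0.14 in KO. Mxd1, an antagonist of Myc, rose by 1.17 ± 0.13 and 1.14 ± 0.13. Irf4, induced by T cell receptor signals, rose by 1.22 ± 0.18 and 1.20 ± 0.18, and Hif1a, the hypoxia factor gene, by 1.18 ± 0.18 and 0.74 ± 0.18. Irf4 is also on the plasma cell marker list, of which 1 of 8 measured genes rose in WT and 2 in KO.

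**Figure D5:**
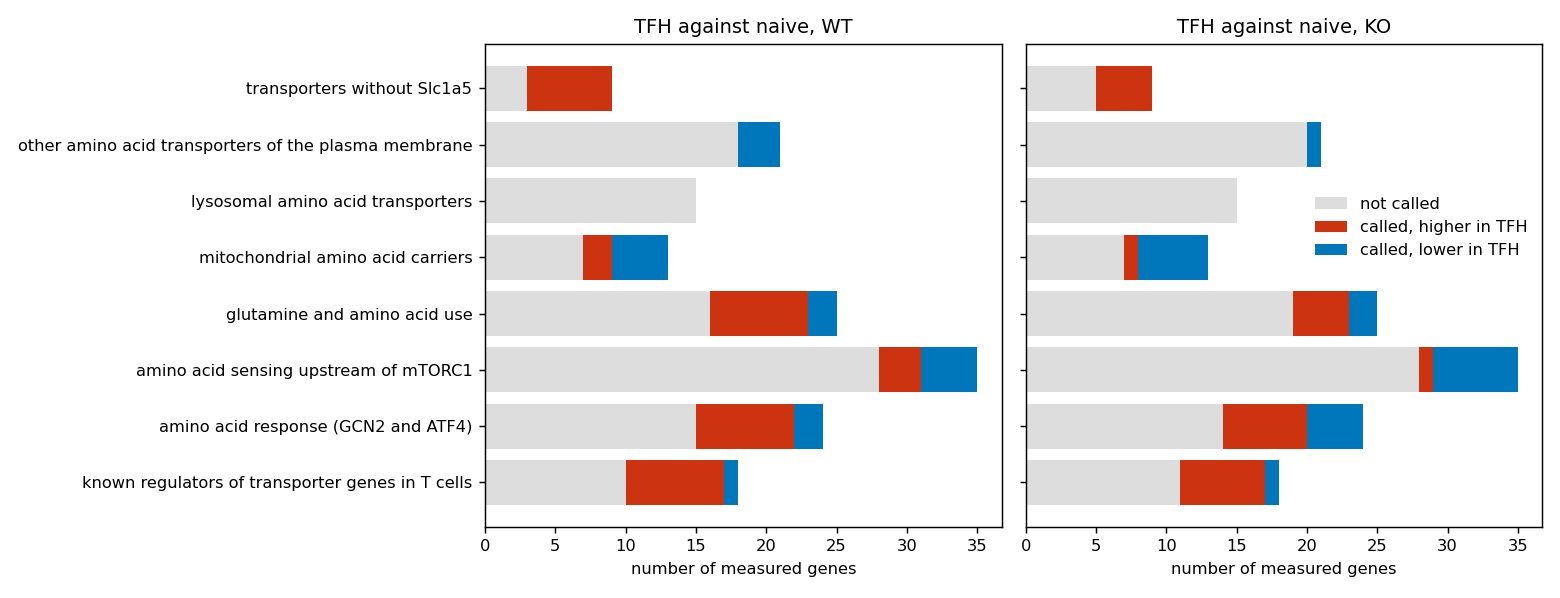
Number of measured genes (x axis) in each list (y axis) that were not called, called higher or called lower in TFH than in naive libraries, for WT (left) and KO (right). Of the 9 transporters without Slc1a5, 6 in WT and 4 in KO were called higher, and none of the 21 other plasma membrane transporters was. Both lists were chosen with earlier results of these data known, so the contrast between them is not independent evidence.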

How the data were processed

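Per the labels' protocols, mRNA libraries were read from one end over 51 bp. The submitters' processing notes name BWA, without a version, and mm10. The sources used here do not say how reads were counted, filtered and normalized. For every library there is 1 table of log2 expression values, as the authors deposited them, for 14042 gene symbols, ranging from 1.16 to 19.48. Above the lowest percentile, sorted values differ from those of the median library by at most 0.03, as quantile normalization leaves them. Depth is therefore unknown, and no interval for counting error could be computed.

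The deposited values entered a linear model of limma 3.58.1 (R 4.3.3), with no pseudocount or filter, 1 mean for each of 4 groups, 4 residual degrees of freedom, and moderated variances (trend and robust settings on). P-values were adjusted by Benjamini-Hochberg over all genes, and 5 comparisons were made. The script was tested on simulated data. Two-sided exact permutation of 2 libraries against 2 cannot go below p = 0.333. The labels do not say that libraries came from separate animals, so the p-values cover only the spread between these samples, possibly technical. Replicate numbers follow accession order and pair nothing.

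The transporter list, the other lists and the trend setting were chosen with earlier results of these data known. Named genes are all 10 transporters, the 5 genes nearest to Slc1a5 in profile (predicted and numbered genes and receptor segments left out), up to 3 neighbours with the widest naive difference (1 is not reported here), and up to 4 called genes per list by p in WT. Gene positions are from GENCODE vM21 on GRCm38, the build mm10 names. Alternatives were 8 changes of fit, filter, scale or libraries and the omission of each of the 8 libraries in turn. Figures were drawn with matplotlib 3.10.9.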

Additional observations from a re-analysis of the deposited data

Results flagged for a closer look

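The measured difference between TFH and naive libraries in Slc1a5 was larger in KO than in WT. The KO difference (1.62) minus the WT difference (-0.13) was 1.75 ± 0.15. Both naive KO libraries lay below both TFH KO libraries, and both naive WT libraries lay above both TFH WT libraries. The gene was chosen for differences that enter this value, so no p is given and nothing is supported with it. The flag was raised because this same value passed the limma threshold over all genes, so it is no separate evidence. Without the mean-variance trend no gene passed that threshold for this difference. The same 4 group means give a genotype difference of -2.38 in naive and -0.62 in TFH libraries.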

How the results depend on the processing

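No paired analysis was possible because the labels carry no replicate numbers. The counts of called genes among the 9 transporters other than Slc1a5 stayed within 1.5 times their main values under each of the 16 alternatives, or 15 for the difference between the genotypes' changes, which needs all 4 groups and cannot be fitted on the compared groups alone. With each library left out in turn the count ran from 4 to 6 in WT and from 3 to 5 in KO (3 in 14 of all 16 alternatives), and it was 0 in each of the comparisons between genotypes and in their difference. Slc1a5 moved by less than the standard deviation of its replicates under each alternative. With 2 libraries per group, omission of 1 library cannot move a mean further than that, and changes of the fit alone left its differences unchanged. Those alternatives therefore do not test its stability. Slc3a2 and Slc38a2 were called in both genotypes, and Slc7a5 in WT, under all 16 alternatives, and Slc1a4 in both genotypes under the 15 that contain it, since a filter on low means removed it. The calls that ended were those of Slc7a1 and Slc7a6, with 9 and 14 alternatives keeping them in WT and 3 keeping that of Slc7a6 in KO. Over all genes, the 3694 calls in WT ran from 1991 (without TFH WT replicate 2) to 3964, and the 2744 calls in KO from 1225 (without replicate 2 of both TFH groups) to 2744. Centring on the 84 ribosomal protein genes changed the share of calls that were higher in KO from 46.6% to 58.7%, and no member's call changed direction.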

Other observations

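Other genes on the lists, picked after their values were seen, had TFH KO values between naive and TFH WT like those of Slc1a4. Stc2 was 6.33 and 5.34 in naive WT, 6.28 and 6.17 in naive KO, 9.09 and 8.59 in TFH WT, and 7.76 and 7.63 in TFH KO. Psat1 was 10.75 and 10.66 in naive WT, 10.94 and 11.05 in naive KO, 12.09 and 12.05 in TFH WT, and 11.33 and 11.71 in TFH KO. Slc25a13 was 8.02 and 8.20 in naive WT, 8.46 and 8.48 in naive KO, 9.28 and 9.20 in TFH WT, and 8.67 and 8.81 in TFH KO. For none of the 3 did the difference between genotypes in the TFH libraries pass the threshold over all genes (limma, adjusted p = 1 for each).

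Within a library, the log2 value of Slc1a5 minus that of Slc1a4 was 7.77 and 7.66 in naive WT, and between 4.18 and 4.46 in the other 6 libraries. Gene length enters such a gap, so its change between libraries is what can be read. In naive KO the gap is narrower through a lower Slc1a5 and a higher Slc1a4, and in TFH WT through a higher Slc1a4, with Slc1a5 near its naive WT level. The difference of Slc1a4 between the naive groups was not called, and Slc1a5 was selected on its differences, so the naive gap is a description only.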
